A study of Mus musculus with 7 samples.

Results

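The genes of T cell receptor signalling were followed through an ATAC-seq experiment on CD4+ T cells from the lymph nodes and lungs of mice infected with the helminth N. brasiliensis. ATAC-seq uses a transposase that cuts into open chromatin, so a region with more insertions per kb is more accessible. The set held 38 genes, chosen as receptor chains and coreceptor (5 genes), kinases (4), adaptors (9), downstream effectors (7), surface modulators (4) and negative regulators (9). Every region of the deposited table that overlapped the GENCODE body of a member plus 10 kb on each side was taken, which gave 1171 of the 113820 regions. Of these, 108 were promoter regions, with a midpoint within 1 kb of an annotated transcript start of the member, and 1063 were regions away from its starts. All 38 genes had at least 1 region away from a start and 34 had a promoter region. Cd2, Grap2, Rasgrp1 and Sh2d2a had none, because the midpoint of the long region that covered the start lay farther away. For Sh2d2a that region was 14.5 kb long, and for Cd2 it was 3.91 kb. By the midpoint rule these regions, and the one over the outer start of Malt1, were counted with the regions away from starts. Members had a median of 25 regions each, against 5 for all protein-coding genes with a region. The neighbours Cd3d, Cd3e and Cd3g on chromosome 9 shared 7 regions, each counted once in the total.

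All mice were C57BL/6 reporter mice on day 8 after a subcutaneous dose of 500 L3 larvae, and each library held 50000 sorted CD4+ T cells. LN IL-4+ cells (n = 2) and lung IL-4+ cells (n = 3) were GFP+ cells of IL-4 4get mice, taken from the mediastinal lymph nodes and the lungs, and GFP reports the Il4 locus in these mice. Lung IFN-gamma+ cells (n = 2) were YFP+ cells from the lungs of IFN-gamma GREAT mice, in which YFP reports the Ifng locus, so cytokine and reporter strain cannot be told apart. The table held no uninfected and no reporter-negative cells, the gate did not separate Th from Tfh cells, and the labels do not say which libraries came from one mouse, so p-values measure the spread between these libraries. Values are log2 insertions per kb after voom, and in bulk cells a lower density in every cell and fewer cells with an open region cannot be told apart.

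The T cell receptor has no enzyme of its own. Antigen binding lets Lck, a kinase carried by CD4, phosphorylate the CD3 and zeta chains, to which the kinase ZAP-70 binds and then phosphorylates the adaptors LAT and SLP-76 (product of Lcp2). These adaptors gather phospholipase C, Vav and SOS and so switch on calcium, Ras and NF-kappaB signalling, while phosphatases, ubiquitin ligases, Csk and diacylglycerol kinases turn the signal down.

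The libraries differed in a way that crossed the IL-4+ populations, and many of the members' values below went with it. In lung IFN-gamma+ cells it cannot be told apart from the population. Insertions per library were rebuilt, as a lower bound, from the order of the distinct values in it. The interquartile range of the log2 of these rebuilt insertions per region was 1.65 to 1.74 in 3 libraries (LN IL-4+ 1, lung IL-4+ 2 and 3), called narrow here, and 2.89 to 3.07 in 4 libraries (LN IL-4+ 2, lung IL-4+ 1, both lung IFN-gamma+), called wide. The narrow libraries had 14005923 to 23564412 rebuilt insertions and the wide ones 39068158 to 91681969, so class and depth went together. Both IL-4+ populations held both kinds, and the IFN-gamma+ population held wide libraries only. Values by library, within a class or with the class as a covariate are therefore given beside pooled ones. Promoters of the T cell markers Cd3e, Cd3d, Cd3g, Cd4 and Cd5 summed to 68.4 to 107 insertions per kb. The 2 measured promoters of the B cell list (Pax5, Ebf1) summed to 45.7 and 52.3 in LN IL-4+, 18.9 to 37.6 in lung IL-4+ and 31.5 and 37.9 in lung IFN-gamma+ libraries, while Cd79a, Ms4a1 and Blk had no promoter region. The 4 measured of 6 myeloid promoters summed to 46.5 and 58.0 in LN IL-4+ and 32.6 to 35.9 in lung libraries, the 2 of 4 cytotoxic or NK cell promoters to 6.11 to 11.6 and the 2 of 4 epithelial promoters to 17.3 to 26.6 over the 7 libraries. Lyz2, Csf1r, Cd8a, Ncr1, Sftpc and Nkx2-1 had no promoter region. Their part in the results was not tested.

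The accessible DNA of the members that the comparisons below turn on is shown here for 6 of the 15 regions that passed the test, the 6 with the largest fold changes among those with no annotated exon in the window. Each run is the central 300 bases of the region on the plus strand of GRCm38/mm10, read from the GRCm38.p6 genome, with matches to the searched letters in capitals. Runx was searched as AACCACA, the T-box as AGGTGTGA, GATA factors as AGATAA and bZIP factors as TGACTCA. Tcf7 was searched as ATCAAAG or as TTCAAAG, the E-box as CAGCTG or as CACCTG, ETS factors as CGGAAGT or as AGGAAGT and NFAT as TGGAAAA, each on both strands, and none of them contains another. The first 3 windows are those of the 6 that differed most between lung IFN-gamma+ and LN IL-4+ cells, and the Lck and Themis windows lie inside genes of the first steps of the pathway.
Sh2d2a upstream region, chr3:87840894-87841193: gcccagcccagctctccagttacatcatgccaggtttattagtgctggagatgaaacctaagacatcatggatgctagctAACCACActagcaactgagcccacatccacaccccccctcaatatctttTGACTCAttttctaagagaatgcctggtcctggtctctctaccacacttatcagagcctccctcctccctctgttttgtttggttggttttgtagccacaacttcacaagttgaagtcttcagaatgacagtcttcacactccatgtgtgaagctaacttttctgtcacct
Trat1 intron region, chr16:48745424-48745723: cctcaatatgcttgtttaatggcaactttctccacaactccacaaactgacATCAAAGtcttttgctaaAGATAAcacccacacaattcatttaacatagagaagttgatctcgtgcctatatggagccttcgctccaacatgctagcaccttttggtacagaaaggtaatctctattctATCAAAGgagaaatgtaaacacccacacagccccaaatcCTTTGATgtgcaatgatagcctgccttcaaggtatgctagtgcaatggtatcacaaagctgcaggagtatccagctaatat
Dgka downstream region, chr10:128713741-128714040: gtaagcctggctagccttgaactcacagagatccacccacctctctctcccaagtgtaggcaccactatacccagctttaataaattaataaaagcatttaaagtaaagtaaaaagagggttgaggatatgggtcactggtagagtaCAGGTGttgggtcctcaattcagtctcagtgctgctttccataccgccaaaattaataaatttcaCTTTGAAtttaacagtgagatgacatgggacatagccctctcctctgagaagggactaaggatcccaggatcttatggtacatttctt
Lck intron region, chr4:129561274-129561573: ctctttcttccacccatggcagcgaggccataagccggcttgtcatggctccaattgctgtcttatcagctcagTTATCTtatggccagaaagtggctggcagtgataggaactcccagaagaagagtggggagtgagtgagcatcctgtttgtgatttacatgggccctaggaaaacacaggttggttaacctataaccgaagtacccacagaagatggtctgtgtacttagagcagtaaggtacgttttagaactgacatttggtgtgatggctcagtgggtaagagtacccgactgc
Themis intron region, chr10:28677628-28677927: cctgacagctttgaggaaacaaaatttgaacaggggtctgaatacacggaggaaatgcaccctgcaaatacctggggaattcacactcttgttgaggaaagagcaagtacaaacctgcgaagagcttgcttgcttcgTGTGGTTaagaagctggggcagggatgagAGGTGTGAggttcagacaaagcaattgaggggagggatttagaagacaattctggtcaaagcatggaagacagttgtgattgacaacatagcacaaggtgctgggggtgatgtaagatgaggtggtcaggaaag
Skap1 upstream region, chr11:96458827-96459126: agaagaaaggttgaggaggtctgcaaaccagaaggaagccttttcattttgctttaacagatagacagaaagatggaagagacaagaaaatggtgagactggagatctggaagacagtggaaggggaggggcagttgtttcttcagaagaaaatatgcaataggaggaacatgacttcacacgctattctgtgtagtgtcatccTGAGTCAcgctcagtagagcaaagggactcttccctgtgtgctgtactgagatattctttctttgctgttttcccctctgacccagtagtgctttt

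**Figure D1:**
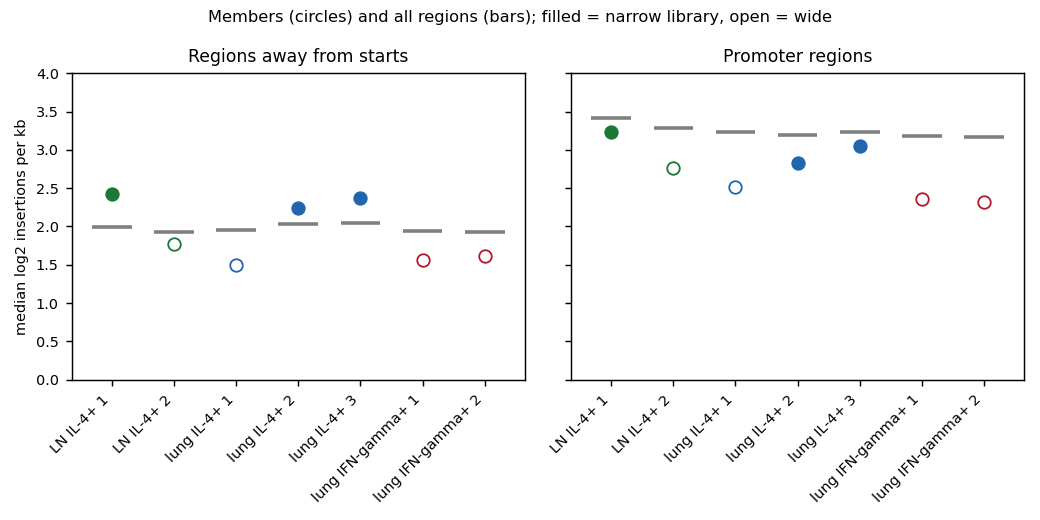
Median log2 insertions per kb (y axis) in each of the 7 libraries (x axis) for members (circles, filled for narrow and open for wide libraries) and for all regions (grey bars), away from starts on the left and at promoters on the right. The bars on the left leave out every region within 1 kb of any protein-coding start. Of the 1063 members' regions on the left, 30 lay within 1 kb of a neighbour's start. Away from starts the members' medians were 2.24 to 2.42 in the 3 narrow and 1.49 to 1.77 in the 4 wide libraries, while those of all regions stayed between 1.92 and 2.05.

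The members' regions followed the class of the library more closely than its population. Their median log2 density was 2.48 in LN IL-4+ 1, 1.80 in LN IL-4+ 2, 1.53 in lung IL-4+ 1, 2.3 in lung IL-4+ 2, 2.41 in lung IL-4+ 3, 1.61 in lung IFN-gamma+ 1 and 1.66 in lung IFN-gamma+ 2. The median of all regions was between 2.08 and 2.22. In the pooled populations the members' median log2 difference was 0.35 for lung IL-4+ over lung IFN-gamma+, against -0.01 for all regions. Between the wide libraries alone, lung IL-4+ 1 against both lung IFN-gamma+ libraries, it was -0.01 for members and 0.01 for all regions. The pooled difference of lung IFN-gamma+ over LN IL-4+ was -0.36 for members and -0.03 for all regions, and within the wide class it was -0.16 and -0.03. For lung IL-4+ over LN IL-4+ the members' median was -0.04 pooled, -0.19 in the wide class and -0.07 in the narrow class, against -0.03, -0.03 and -0.04 for all regions.

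With a mean density of at least 5 insertions per kb taken as accessible, 490 of the 1171 regions (41.8%) were accessible in LN IL-4+, 477 (40.7%) in lung IL-4+ and 332 (28.4%) in lung IFN-gamma+ cells, against 43.7%, 43.6% and 42.9% of all regions. By library the order was that of the classes. The members' share was 56.2% in LN IL-4+ 1, 49.0% in lung IL-4+ 2 and 53.5% in lung IL-4+ 3, the narrow libraries, and 31.5% in LN IL-4+ 2, 28.2% in lung IL-4+ 1, and 28.4% and 29.0% in the lung IFN-gamma+ libraries, the wide ones, while 42.8% to 45.9% of all regions were accessible in each library. There were 274 regions accessible in all 3 populations, 23.4% of the members' regions and 30.8% of all regions. Of the 108 promoter regions 53 (49.1%) were accessible in all 3 populations, against 60.5% of all regions within 1 kb of a protein-coding start. The highest region of a gene was its promoter in 13 of the 38 members, and the same count over all genes is not given here. For Cd3d, Cd3g, Cd4, Lck, Lat, Ptpn22, Ptpn6 and Dgka the highest region lay within 1 kb of another gene's start. The members' regions had a median length of 628 bp and a median GC content of 45.8%, against 486.5 bp and 46.9% for all regions.

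Regions were called where limma gave a Benjamini-Hochberg adjusted p below 0.05 over all 113820 regions and the fold change was at least 3. In lung IL-4+ over lung IFN-gamma+ cells 0 of the members' regions were called higher and 1 lower, where 0.108% and 0.387% of all regions were called. In lung IL-4+ over LN IL-4+ cells 2 were higher and 0 lower, against 1.05% and 0.695% of all regions. In lung IFN-gamma+ over LN IL-4+ cells 8 were higher and 5 lower, against 2.17% and 0.862%. The members' share was below that of all regions in each of these 6 counts, and no promoter region of a member was called in this fit. At an unadjusted p below 0.05 and 3-fold, 28 members' regions were higher and 6 lower in lung IL-4+ over lung IFN-gamma+ cells, 7 and 10 in lung IL-4+ over LN IL-4+ cells, and 13 and 59 in lung IFN-gamma+ over LN IL-4+ cells. Of all regions 1.44% and 1.93%, 2.13% and 1.88%, and 4.4% and 2.92% passed these limits. The members' shares were above those of all regions for the 28 (2.39%) and for the 59 (5.04%) and below them for the other 4 counts. With the class of the library as a covariate the counts were 4 and 5, 8 and 20, and 17 and 28, against 1.21% and 1.57%, 2.45% and 1.94%, and 3.86% and 2.92% of all regions, and the members' shares, 0.342% to 2.39%, were below those of all regions in all 6. The last 2 comparisons share the LN IL-4+ libraries. The calls were 16 on 15 regions in 14 genes, and each is described with its gene below.

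Leaving out 1 library at a time kept 15 of the 16 calls without lung IL-4+ 1, 13 without LN IL-4+ 2, 11 without lung IL-4+ 3, 9 without lung IL-4+ 2, 6 without LN IL-4+ 1, 2 without lung IFN-gamma+ 2 and 1 without lung IFN-gamma+ 1, and 0 changed sign. The call that held without each of the 7 libraries was the one downstream of Malt1. With the library class as a covariate, a setting known from earlier results of these data, 3 members' regions were called in lung IL-4+ over lung IFN-gamma+, 16 in lung IL-4+ over LN IL-4+ and 23 in lung IFN-gamma+ over LN IL-4+ cells, against 1.16%, 3.53% and 4.62% of all regions. The members' shares, 0.256%, 1.37% and 1.96%, were again below those of all regions. The calls with the covariate included a promoter region of Ubash3a at an internal start (chr17:31219168-31220517). It was higher by 1.90 in lung IFN-gamma+ over LN IL-4+ cells (SE 0.25, adjusted p = 0.0011 by limma).

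**Figure D2:**
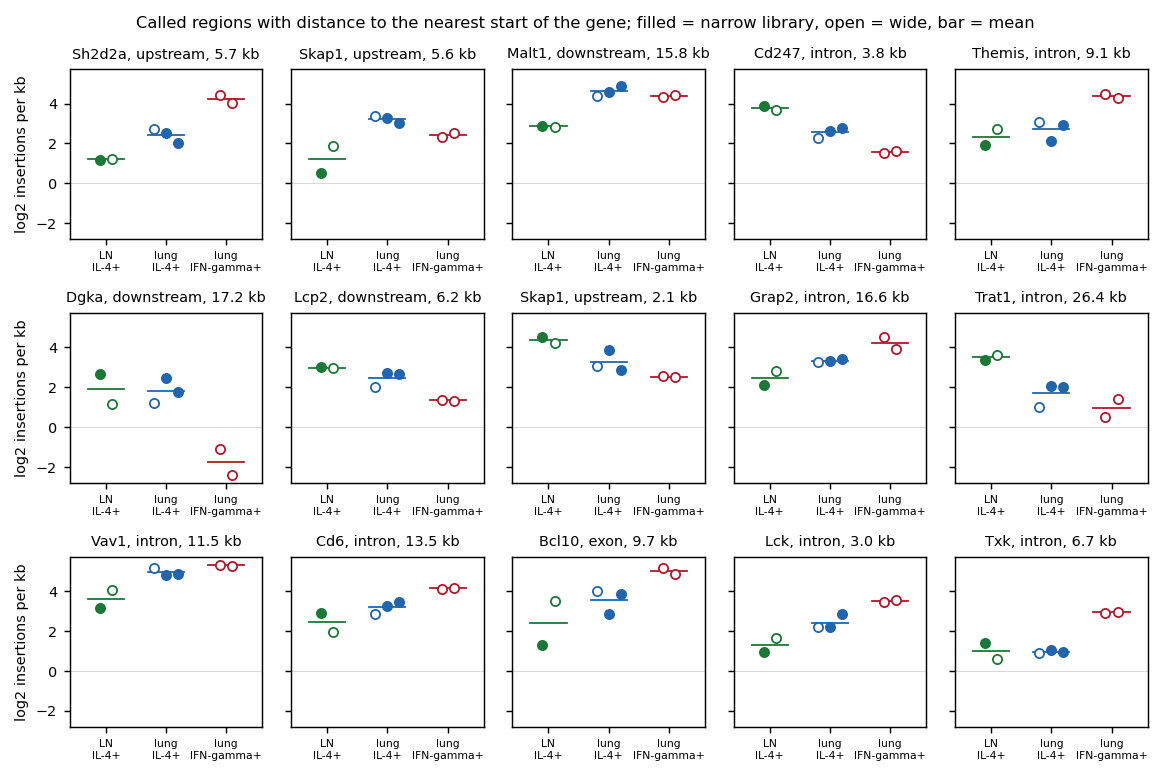
Log2 insertions per kb (y axis) of the 15 called regions by population (x axis), with a filled circle for a narrow and an open circle for a wide library and a line at the mean. The region 5.71 kb upstream of Sh2d2a ran from 1.18 and 1.21 in LN IL-4+ to 4.44 and 4.04 in lung IFN-gamma+ libraries, and the region downstream of Dgka was below 0 in both lung IFN-gamma+ libraries only.

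The receptor chains and CD4 had accessible promoter regions in every library. CD3 delta, epsilon and gamma (Cd3d, Cd3e, Cd3g) pair with the receptor and the zeta chain (Cd247) carries most of its signalling motifs. The highest promoter region of Cd3d (chr9:44984163-44987842) lay at an internal start and ran past the 3' end of the gene. Its log2 density was 4.61 and 3.77 in LN IL-4+ 1 and 2, 3.99, 4.43 and 4.59 in lung IL-4+ 1, 2 and 3, and 3.83 and 3.89 in lung IFN-gamma+ 1 and 2. The 3 narrow libraries were above all 4 wide ones, so the populations overlapped. Cd3e (chr9:45008960-45010903) showed the same order of classes, with 4.47 and 4.15 in LN IL-4+, 4.25, 4.59 and 4.71 in lung IL-4+, and 4.04 and 3.96 in lung IFN-gamma+ libraries. Cd4, the coreceptor on which the cells were sorted, had the lowest promoter of the group (chr6:124887788-124889106), with 3.91 and 3.12, then 3.04, 3.42 and 4.05, then 3.30 and 3.28. Cd247 went the other way. Its promoter (chr1:165788296-165788942) had 4.45 and 4.98 in LN IL-4+, 4.32, 4.24 and 4.24 in lung IL-4+, and 4.93 and 4.95 in lung IFN-gamma+ libraries.

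Inside Cd247 an intronic region (chr1:165867702-165869178, 3.79 kb from the nearest annotated start and also within Pou2f1) fell in lung IFN-gamma+ against LN IL-4+ cells. Its log2 density was 3.90 and 3.67 in LN IL-4+, 2.24, 2.63 and 2.77 in lung IL-4+, and 1.52 and 1.61 in lung IFN-gamma+ libraries. The 3 populations did not overlap, and the wide LN IL-4+ library lay above the narrow lung IL-4+ ones. Within both IL-4+ populations the narrow libraries were above the wide one. The difference of lung IFN-gamma+ over LN IL-4+ cells was -2.22 (SE 0.33, adjusted p = 0.006 by limma), and -2.11 between the wide libraries. The call was lost without either lung IFN-gamma+ library, with a log2 difference of -2.18 and an adjusted p of 0.103 without replicate 1. Summed over its 47 regions away from starts, Cd247 had 682 and 603 normalized insertions (CPM scale) in LN IL-4+, 502, 597 and 665 in lung IL-4+, and 403 and 431 in lung IFN-gamma+ libraries. With the class covariate this sum fell by 0.49 on the log2 scale in lung IFN-gamma+ against LN IL-4+ cells (SE 0.09, adjusted p = 0.004 by limma), and without it the difference was -0.62 (SE 0.16, adjusted p = 0.079).

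Among the kinases, Lck phosphorylates the receptor chains, Fyn is a related kinase that also binds them, ZAP-70 carries the signal to the adaptors and Txk is a Tec family kinase. The Lck promoter (chr4:129569591-129575851) had log2 densities of 4.80 and 4.19 in LN IL-4+, 4.15, 4.72 and 4.70 in lung IL-4+, and 4.15 and 4.13 in lung IFN-gamma+ libraries. At Zap70 (chr1:36760126-36762519) the values were 4.76 and 4.13, then 4.44, 5.14 and 5.23, then 4.29 and 4.19. Both promoters were higher in narrow than in wide libraries of the same population. The Fyn promoter (chr10:39369472-39371931) was the most even, between 5.30 and 5.47 in all 7 libraries. Txk had the reverse order of Lck. Its promoter (chr5:72752270-72753080) had 4.57 and 5.25 in LN IL-4+, 4.29, 4.14 and 4.16 in lung IL-4+, and 5.26 and 5.52 in lung IFN-gamma+ libraries, so that the lung IL-4+ libraries lay below all others. The promoter sum of Txk differed by -1.19 (SE 0.22) between lung IL-4+ and lung IFN-gamma+ cells, with an adjusted p of 0.215 by limma, and by -0.94 (SE 0.18, adjusted p = 0.041) with the class covariate.

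An intronic region of Txk (chr5:72743110-72743532) was low in both IL-4+ populations and higher in lung IFN-gamma+ cells. Log2 density was 1.42 and 0.63 in LN IL-4+, 0.93, 1.04 and 0.98 in lung IL-4+, and 2.94 and 2.97 in lung IFN-gamma+ libraries. The difference of lung IFN-gamma+ over LN IL-4+ cells was 1.93 (SE 0.47, adjusted p = 0.048 by limma), and 2.32 between the wide libraries. It held in 1 of the 7 fits without a library, and its adjusted p was 0.441 without lung IFN-gamma+ 1. With the class covariate the same region was also lower in lung IL-4+ than in lung IFN-gamma+ cells, by -2.23 (SE 0.44, adjusted p = 0.026 by limma).

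The intronic region of Lck shown above (chr4:129561202-129561645) rose stepwise over the populations. It had 0.98 and 1.68 in LN IL-4+, 2.21, 2.21 and 2.89 in lung IL-4+, and 3.46 and 3.57 in lung IFN-gamma+ libraries, without overlap. The difference of lung IFN-gamma+ over LN IL-4+ cells was 2.18 (SE 0.39, adjusted p = 0.014 by limma), 1.83 in the wide class, and the call held in 5 of 7 fits without a library, with an adjusted p of 0.188 without lung IFN-gamma+ 2. Away from starts, Zap70 sums had the widest class difference of the kinases, with 85.3 and 40.2 normalized insertions (CPM scale) in LN IL-4+, 45.8, 73.3 and 92.2 in lung IL-4+, and 34.7 and 36.0 in lung IFN-gamma+ libraries. Its pooled difference of lung IL-4+ over lung IFN-gamma+ cells, 0.94 (SE 0.36), was the largest of the 38 members, with an adjusted p of 0.288 by limma, and was 0.31 with the class covariate. The Fyn sum, over 102 regions, was 689 and 507 in LN IL-4+, 354, 449 and 461 in lung IL-4+, and 433 and 415 in lung IFN-gamma+ libraries, so that both LN IL-4+ libraries lay above all lung libraries. With the class covariate it fell by 0.56 in lung IL-4+ against LN IL-4+ cells (SE 0.07, adjusted p = 0.00018 by limma) and by 0.28 in lung IFN-gamma+ against LN IL-4+ cells (SE 0.09, adjusted p = 0.041). Without the covariate these differences were -0.50 and -0.48, with adjusted p of 0.202 and 0.22.

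The adaptors ranged widely in the level of their promoters. Nck1, which links the receptor to actin, had the highest promoter of all members (chr9:100545890-100546454), with 7.0 and 7.48 in LN IL-4+, 7.51, 7.30 and 7.19 in lung IL-4+, and 7.57 and 7.57 in lung IFN-gamma+ libraries. It was higher in wide than in narrow libraries. Lat, the membrane scaffold that ZAP-70 phosphorylates, had the opposite order at its promoter (chr7:126367619-126369796), with 4.58 and 4.09, then 4.07, 4.50 and 4.61, then 3.98 and 4.00. Skap1, which couples the receptor to integrins, had the largest excess of narrow over wide libraries among the adaptors (chr11:96463168-96466797), with 3.79 and 2.78, then 2.50, 3.59 and 3.78, then 2.14 and 2.29. Trat1, a membrane adaptor of the receptor complex, was highest in 1 wide library. Its promoter (chr16:48771971-48772626) had 3.98 and 5.11 in LN IL-4+, 3.69, 3.54 and 3.42 in lung IL-4+, and 4.26 and 4.46 in lung IFN-gamma+ libraries.

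Sh2d2a, the T cell specific adaptor that binds Lck, held the called region with the steepest rise. The region 5.71 kb upstream of its start (chr3:87840831-87841257), shown above with its Runx and bZIP letters, had 1.18 and 1.21 in LN IL-4+, 2.71, 2.53 and 2.02 in lung IL-4+, and 4.44 and 4.04 in lung IFN-gamma+ libraries. These came from 42 to 97 rebuilt insertions in each IL-4+ library and from 496 and 634 in the lung IFN-gamma+ libraries. The difference was 3.04 (SE 0.35, adjusted p = 0.0025 by limma) for lung IFN-gamma+ over LN IL-4+ cells, 8.24-fold, and 3.03 between the wide libraries. It held without 6 of the 7 libraries, with an adjusted p of 0.081 without lung IFN-gamma+ 1. Lung IL-4+ cells were lower than lung IFN-gamma+ cells by -1.82 (SE 0.32, adjusted p = 0.040), -1.52 between the wide libraries, and this call held in 3 of 7 fits without a library, with -1.61 and an adjusted p of 0.918 without lung IFN-gamma+ 1. The sum of its 6 regions came mostly from the long region over the gene and its start. This sum was 207 and 118 in LN IL-4+, 193, 319 and 306 in lung IL-4+, and 193 and 190 normalized insertions (CPM scale) in lung IFN-gamma+ libraries. With the class covariate it rose by 0.64 in lung IL-4+ (SE 0.08, adjusted p = 0.00014 by limma) and by 0.67 in lung IFN-gamma+ (SE 0.09, adjusted p = 0.00038) over LN IL-4+ cells, against 0.77 (adjusted p = 0.219) and 0.29 (adjusted p = 0.606) without it.

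Skap1 had 2 called upstream regions that moved in different comparisons. The farther one, 5.62 kb from the start (chr11:96458752-96459202), had 0.54 and 1.85 in LN IL-4+, 3.4, 3.28 and 3.01 in lung IL-4+, and 2.33 and 2.50 in lung IFN-gamma+ libraries. Lung IL-4+ cells were highest, with 2.03 over LN IL-4+ cells (SE 0.40, adjusted p = 0.026 by limma), 1.53 in the wide and 2.61 in the narrow class, and the call held in 1 of 7 fits without a library. The nearer one, 2.14 kb from the start (chr11:96462188-96462709), had 4.54 and 4.24 in LN IL-4+, 3.08, 3.85 and 2.88 in lung IL-4+, and 2.56 and 2.53 in lung IFN-gamma+ libraries, and was -1.85 in lung IFN-gamma+ over LN IL-4+ cells (SE 0.33, adjusted p = 0.014), -1.70 in the wide class. Their adjusted p rose to 0.122 without lung IL-4+ 2 and 0.152 without lung IFN-gamma+ 1. The sum over the gene, 152 and 118 in LN IL-4+, 98.6, 137 and 126 in lung IL-4+, and 88.8 and 86.0 in lung IFN-gamma+ libraries, fell by 0.42 with the class covariate in lung IFN-gamma+ against LN IL-4+ cells (SE 0.10, adjusted p = 0.014 by limma), and was -0.62 (adjusted p = 0.130) without it.

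The Trat1 intronic region with 3 Tcf7 and 1 GATA match (chr16:48745179-48745969) was open in lymph node cells. It had 3.39 and 3.61 in LN IL-4+, 1.02, 2.04 and 2.02 in lung IL-4+, and 0.52 and 1.39 in lung IFN-gamma+ libraries. Lung IFN-gamma+ cells were lower by -2.55 (SE 0.49, adjusted p = 0.019 by limma), -2.66 in the wide class, and the call held in 4 of 7 fits without a library, with an adjusted p of 0.235 without lung IFN-gamma+ 1. With the class covariate it was also lower in lung IL-4+ than in LN IL-4+ cells, by -1.89 (SE 0.38, adjusted p = 0.010).

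Themis, an adaptor that tunes signal strength in developing T cells, had an intronic region with Runx and T-box letters (chr10:28677553-28678002) that was highest in lung IFN-gamma+ cells. Its values were 1.89 and 2.73 in LN IL-4+, 3.09, 2.12 and 2.90 in lung IL-4+, and 4.46 and 4.26 in lung IFN-gamma+ libraries. The IL-4+ populations overlapped and both lung IFN-gamma+ libraries lay above them. The difference over LN IL-4+ cells was 2.05 (SE 0.39, adjusted p = 0.019 by limma), 1.63 in the wide class, and it held in 4 of 7 fits without a library, with 0.228 without lung IFN-gamma+ 1. Grap2, which bridges LAT and SLP-76, rose in an intron (chr15:80639860-80640391) from 2.14 and 2.80 in LN IL-4+ through 3.28, 3.30 and 3.43 in lung IL-4+ to 4.52 and 3.92 in lung IFN-gamma+ libraries. That difference was 1.75 (SE 0.31, adjusted p = 0.014), 1.42 in the wide class, which is under 3-fold, and the call held in 4 of 7 fits, with 0.261 without lung IFN-gamma+ 1.

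Downstream of Lcp2, within the neighbouring 4930469K13Rik, a region (chr11:34092733-34093598) had 3.00 and 2.98 in LN IL-4+, 2.04, 2.71 and 2.65 in lung IL-4+, and 1.37 and 1.31 in lung IFN-gamma+ libraries. It was -1.65 in lung IFN-gamma+ over LN IL-4+ cells (SE 0.37, adjusted p = 0.035 by limma), -1.64 in the wide class, and held in 2 of 7 fits without a library, with 0.285 without lung IFN-gamma+ 1. The other sums of Lcp2 were 197 and 150 in LN IL-4+, 147, 241 and 262 in lung IL-4+, and 108 and 114 normalized insertions (CPM scale) in lung IFN-gamma+ libraries, so that all lung IL-4+ libraries lay above both lung IFN-gamma+ libraries. The difference was 0.92 (SE 0.25, adjusted p = 0.157 by limma) pooled and 0.51 (SE 0.12, adjusted p = 0.021) with the class covariate, the 1 call among the members' sums away from starts in that comparison. Grb2, which brings SOS to LAT, had a sum of 189 and 128 in LN IL-4+, 168, 213 and 254 in lung IL-4+, and 144 and 150 in lung IFN-gamma+ libraries, and the covariate gave 0.34 in lung IL-4+ over LN IL-4+ cells (SE 0.09, adjusted p = 0.020), against 0.42 (adjusted p = 0.383) without it. The Themis sum rose by 0.29 with the covariate in the same comparison (SE 0.09, adjusted p = 0.038), against 0.24 (adjusted p = 0.493) without it.

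The effectors held several of the most open promoters. Phospholipase C gamma (Plcg1, chr2:160731093-160731671), which makes the second messengers of calcium and Ras signalling, had 6.39 and 6.67 in LN IL-4+, 6.69, 6.42 and 6.22 in lung IL-4+, and 6.63 and 6.72 in lung IFN-gamma+ libraries. Bcl10, which joins Malt1 in the complex that activates NF-kappaB, had 6.37 and 6.72, then 6.58, 6.48 and 6.28, then 6.60 and 6.56 at its promoter (chr3:145923943-145925926). Sos1, which activates Ras, ranged from 4.69 to 5.39 (chr17:80479156-80480692). All of these were higher in wide than in narrow libraries of both IL-4+ populations. The promoter regions of protein kinase C theta (Prkcq) and of Malt1 that met the rule lay at internal starts and were low, with 1.31 to 2.75 and 0.67 to 3.26. The highest promoter regions of Cd3d, Fyn, Grb2, Bcl10, Csk, Ptpn6, Dgkz and Sla also met the rule at a start inside the gene. They did not cover its outer start. The outer start of Malt1 lay in a 6.35 kb region whose log2 density was between 4.56 and 4.84 in the 7 libraries, and the highest region of Prkcq, in an intron, had a mean of 5.83.

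Malt1, a protease of the NF-kappaB pathway, had the call that was the least dependent on single libraries. The region beyond the 3' end of the gene (chr18:65485735-65486644) had 2.86 and 2.84 in LN IL-4+, 4.39, 4.60 and 4.86 in lung IL-4+, and 4.35 and 4.42 in lung IFN-gamma+ libraries. It was higher in all 5 lung libraries than in both LN IL-4+ libraries. The difference of lung IL-4+ over LN IL-4+ cells was 1.77 (SE 0.21, adjusted p = 0.0041 by limma), 3.41-fold, with 1.55 in the wide and 1.87 in the narrow class, and 1.65 to 1.88 over the 7 fits without a library. Between lung IFN-gamma+ and LN IL-4+ cells its difference was 1.64 with the class covariate (SE 0.19, adjusted p = 0.00051 by limma), past 3-fold, and under 3-fold without it.

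Vav1, an exchange factor that drives actin rearrangement, had an intronic region (chr17:57290055-57291162) with 3.17 and 4.08 in LN IL-4+, 5.20, 4.81 and 4.86 in lung IL-4+, and 5.33 and 5.28 in lung IFN-gamma+ libraries. Every lung library was above both LN IL-4+ libraries. For lung IFN-gamma+ over LN IL-4+ cells the difference was 1.68 (SE 0.28, adjusted p = 0.011 by limma), with 1.23 in the wide class, under 3-fold, and it held in 4 of 7 fits, with 0.135 without lung IFN-gamma+ 1. The exonic region of Bcl10 (chr3:145933795-145934256), 9.67 kb from its start and 3.99 kb from that of 2410004B18Rik, rested more on 1 library. It had 1.30 and 3.54 in LN IL-4+, 4.00, 2.87 and 3.89 in lung IL-4+, and 5.19 and 4.90 in lung IFN-gamma+ libraries. The difference was 2.62 (SE 0.61, adjusted p = 0.040), 1.50 in the wide class, which is also its value without LN IL-4+ 1, and 3.75 without LN IL-4+ 2, and the call held in 2 of 7 fits without a library. Rasgrp1, which activates Ras on diacylglycerol, had a sum of 258 and 271 in LN IL-4+, 257, 321 and 316 in lung IL-4+, and 215 and 230 in lung IFN-gamma+ libraries, with 0 called regions in the pooled fit.

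The surface modulators were open at intermediate levels. CD2 and CD6 bind ligands on other cells, CD5 dampens the receptor, and CD45 (Ptprc) removes the inhibitory phosphate from Lck. Mean promoter densities were 4.05 for Cd5, 3.90 for Cd6 and 3.66 for Ptprc over the 7 libraries, and all 3 were higher in narrow than in wide libraries in both IL-4+ populations. Ptprc (chr1:138173650-138176987) had 3.97 and 3.85 in LN IL-4+, 3.48, 3.99 and 4.06 in lung IL-4+, and 3.07 and 3.23 in lung IFN-gamma+ libraries, which were the lowest. Its promoter sum was -0.84 in lung IFN-gamma+ over LN IL-4+ cells (SE 0.25, adjusted p = 0.202 by limma) and -0.57 with the class covariate (SE 0.14, adjusted p = 0.030). The region over the start of Cd2 (chr3:101284647-101288553) had 4.51 and 4.09, then 3.65, 4.32 and 4.56, then 3.80 and 3.87, in the order of the classes.

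An intronic region of Cd6 (chr19:10815805-10816930) rose in lung IFN-gamma+ cells. It had 2.93 and 1.98 in LN IL-4+, 2.84, 3.27 and 3.49 in lung IL-4+, and 4.13 and 4.18 in lung IFN-gamma+ libraries. The difference over LN IL-4+ cells was 1.70 (SE 0.35, adjusted p = 0.026 by limma) and was larger in the wide class, at 2.17. It held in 3 of 7 fits without a library, with 0.241 without lung IFN-gamma+ 1 and 1.22 for the difference without LN IL-4+ 2. The Cd6 sum rose by 0.36 in that comparison with the class covariate (SE 0.10, adjusted p = 0.031 by limma), against 0.01 (adjusted p = 0.993) without it. Its promoter sum was -0.53 in lung IL-4+ over LN IL-4+ cells with the covariate (SE 0.14, adjusted p = 0.038) and -0.44 (adjusted p = 0.539) without it.

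The negative regulators made up 9 genes with 310 regions. Of these, 1 was called, lower in lung IFN-gamma+ than in LN IL-4+ cells, where 0.862% of all regions were called lower. With the class covariate, regions of Dgka, Cblb, Ptpn22, Ubash3a and Pag1 were called in that comparison, where 4.62% of all regions were called. Regions of Csk and Pag1 were called in lung IL-4+ over LN IL-4+ cells, where 3.53% of all regions were. Csk phosphorylates the inhibitory site of Lck, Pag1 holds Csk at the membrane, Ptpn22 and Ptpn6 are phosphatases, Cblb is a ubiquitin ligase, Ubash3a acts on ZAP-70 signalling, Dgka and Dgkz remove diacylglycerol and Sla lowers receptor levels. Cblb (chr16:52031077-52032810) had the highest promoter of the group, with 6.11 and 6.50 in LN IL-4+, 6.18, 6.01 and 6.08 in lung IL-4+, and 6.27 and 6.32 in lung IFN-gamma+ libraries, and Pag1 followed with 5.13 to 5.84 (chr3:9833409-9833858). Both were higher in wide than in narrow libraries of the same population, while the other 7 were higher in narrow libraries in both IL-4+ populations. Sla (chr15:66798977-66804475, at an internal start) had 4.13 and 3.90, then 4.01, 4.60 and 4.64, then 3.50 and 3.66, so the lung IFN-gamma+ libraries lay lowest. Its sum away from starts was 319 and 220 in LN IL-4+, 252, 484 and 490 in lung IL-4+, and 239 and 248 in lung IFN-gamma+ libraries, and rose by 0.43 in lung IL-4+ over LN IL-4+ cells with the class covariate (SE 0.09, adjusted p = 0.006 by limma), against 0.56 (adjusted p = 0.414) without it.

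The region called without the covariate, in Pmel and downstream of Dgka (chr10:128713691-128714091), was nearly closed in lung IFN-gamma+ cells. It had 2.67 and 1.15 in LN IL-4+, 1.22, 2.44 and 1.74 in lung IL-4+, and -1.12 and -2.40 in lung IFN-gamma+ libraries, from 24 to 89 rebuilt insertions in the IL-4+ libraries and from 3 and 2 in the lung IFN-gamma+ libraries. Its difference of -3.67 (SE 0.77, adjusted p = 0.027 by limma) was the largest of the 16 calls, was -2.91 in the wide class, and held in 2 of 7 fits without a library, with an adjusted p of 0.215 without lung IFN-gamma+ 2. At so few insertions a difference of this size is imprecise. The Dgkz sum, 244 and 136 in LN IL-4+, 121, 191 and 186 in lung IL-4+, and 121 and 118 in lung IFN-gamma+ libraries, was -0.28 in lung IL-4+ over LN IL-4+ cells with the class covariate (SE 0.08, adjusted p = 0.035) and -0.16 (adjusted p = 0.857) without it. The promoter sum of Ubash3a rose by 0.46 (SE 0.09, adjusted p = 0.014) and that of Csk fell by 0.62 (SE 0.17, adjusted p = 0.042) in the same fit, against 0.55 (adjusted p = 0.401) and -0.51 (adjusted p = 0.518) without the covariate.

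**Figure D3:**
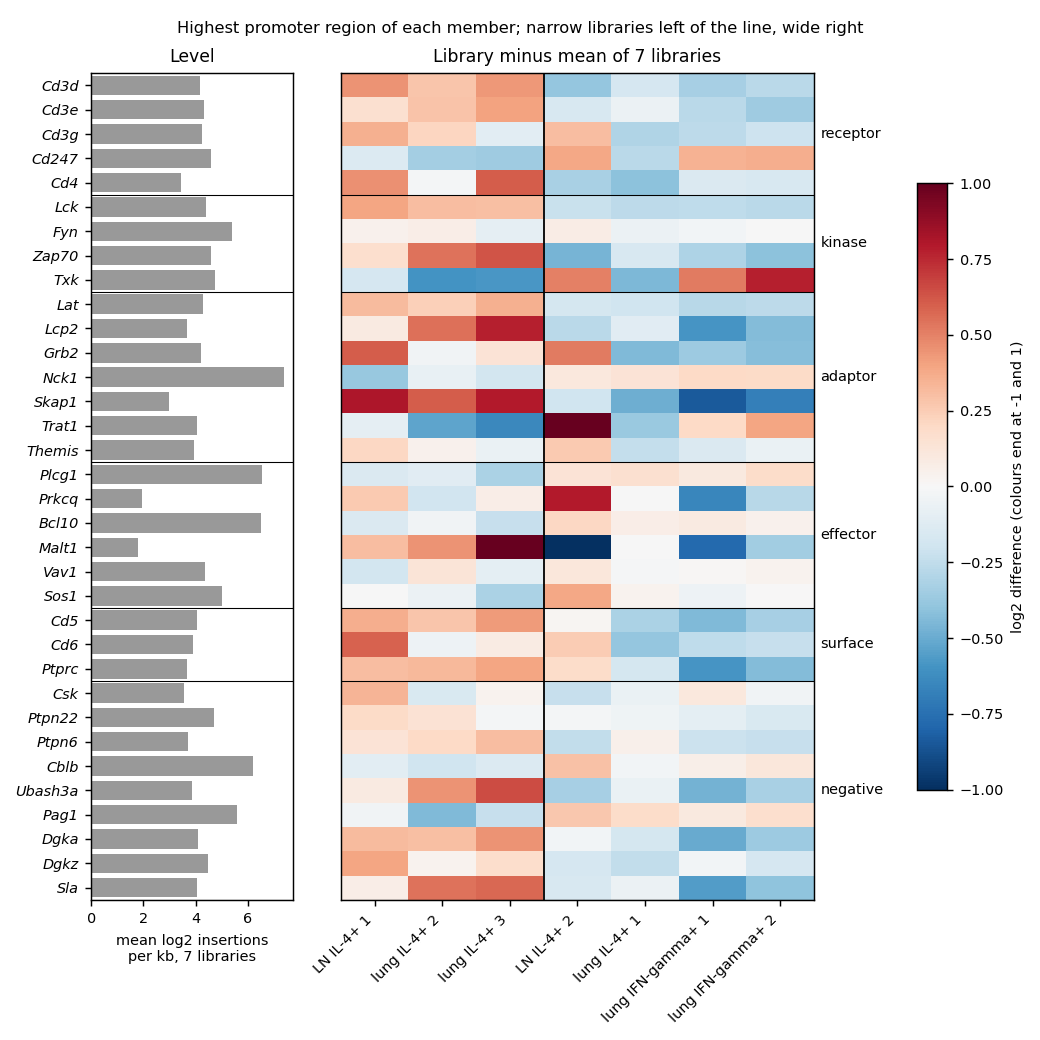
Mean log2 insertions per kb over 7 libraries (left) and the log2 difference of each library from that mean (right) at the highest promoter region of the 34 members that have one, ordered by role, with the 3 narrow libraries left of the vertical line. Skap1, Zap70, Lcp2 and Ubash3a are red at left, and Txk and Nck1 are red in both lung IFN-gamma+ libraries at right.

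Across members the class difference recurred. At 21 of the 34 promoters the narrow libraries were above the wide ones in both IL-4+ populations, and at 10 they were below in both. The 10 were Nck1, Plcg1, Bcl10, Cblb, Pag1, Sos1, Txk, Trat1, Cd247 and Prkcq. By promoter sums the narrow libraries were above in both for 22 and below in both for 9 of the 34 members. Over all 13718 genes these counts were 4519 (32.9%) and 5863. For sums away from starts the narrow libraries were above in both populations in 27 of 38 members and below in both in 3 (Sos1, Bcl10 and Themis). Of all 15972 genes 37.3% were above in both and 6175 were below in both. The median narrow minus wide log2 difference of the members' sums was 0.37 in LN IL-4+ and 0.48 in lung IL-4+ cells, and 0.02 and -0.03 over all genes. Across the 34 promoters, which share libraries and are not independent, the mean level went with GC content (Pearson r = 0.64, Spearman rho = 0.52) and against the narrow minus wide difference (r = -0.51 in LN IL-4+ and -0.63 in lung IL-4+ cells). What sets the class of a library was not tested.

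**Figure D4:**
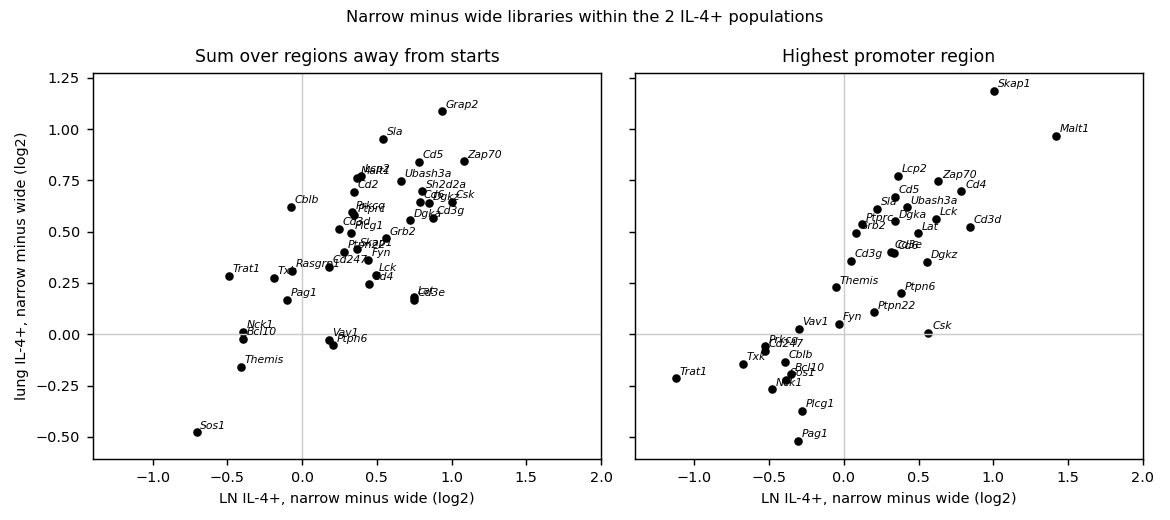
Narrow minus wide log2 difference within LN IL-4+ (x axis) and within lung IL-4+ (y axis) cells, 1 point per member, for sums over regions away from starts (38 members, left) and the highest promoter region (34 members, right). The points lie mostly above and to the right of 0, 27 of 38 and 21 of 34, and Sos1, Pag1 and Nck1 lie lower left in at least 1 panel.

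Summed per gene, 0 members were called by limma in any of the 3 comparisons, at promoters or away from starts, when each population had 1 mean. For promoter sums 0%, 0.474% and 0.569% of 13718 genes were called in lung IL-4+ over lung IFN-gamma+, lung IL-4+ over LN IL-4+ and lung IFN-gamma+ over LN IL-4+ cells, and for the other sums 0.795%, 2.12% and 3.94% of 15972 genes. At an unadjusted p below 0.05, 10 of 34 promoter sums were higher and 2 lower in the first comparison, 1 and 3 in the second, and 0 and 9 in the third, where 5.77% and 9.38%, 2.69% and 8.85%, and 4.29% and 10.1% of all genes passed. For the other sums the counts were 8 and 1, 1 and 1, and 0 and 7 of 38, against 7.2% and 8.15%, 7.39% and 8.63%, and 9.24% and 10.4% of all genes, and no other tool was run. The members' shares were well above those of all genes for the 10 (29.4%), the 9 (26.5%), the 8 (21.1%) and the 7 (18.4%), all higher in IL-4+ than in lung IFN-gamma+ cells, the 2 comparisons in which narrow libraries stand on the IL-4+ side only. The other sums were higher for lung IL-4+ cells against lung IFN-gamma+ cells for 32 of 38 members pooled, and for 19 of 38 between the wide libraries. The exact two-sided permutation test cannot go below p = 0.1 with 3 against 2 libraries or below 0.333 with 2 against 2.

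With the class covariate 1, 6 and 1 of 34 promoter sums and 1, 6 and 5 of 38 other sums were called in the 3 comparisons, against 0.59%, 8.8% and 5.85% of all genes for promoter sums and 5.48%, 18.2% and 15.8% for other sums. In lung IL-4+ over LN IL-4+ cells the promoter sums of Trat1 (-0.82), Txk (-0.65), Csk (-0.62), Cd6 (-0.53) and Cd247 (-0.52) were lower and that of Ubash3a (0.46) was higher. The members' share of promoter sums was above that of all genes there and in lung IL-4+ over lung IFN-gamma+ cells, where it was 1 gene, and it was below that of all genes for the other sums in all 3 comparisons.

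**Figure D5:**
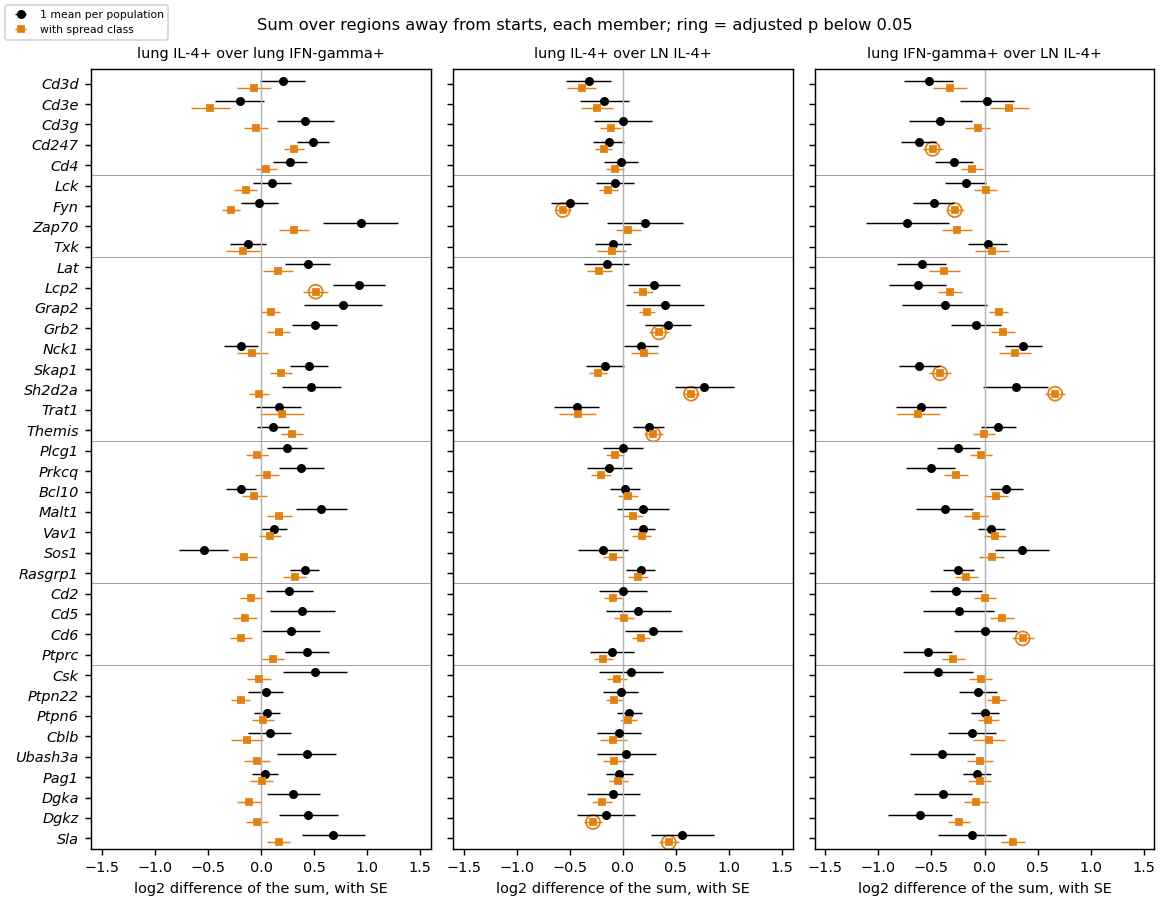
Log2 difference with its SE (x axis) of the sum over regions away from starts for each of the 38 members (rows, by role) in the 3 comparisons, with 1 mean per population (black) and with the class of the library as a covariate (orange, ringed at an adjusted p below 0.05). Black points lie right of 0 for 32 of 38 members in the first panel and the orange ones gather around 0, with Lcp2 ringed.

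A further list of 40 genes of the pathway, with 884 regions, was called at shares near or below those of all regions. In lung IL-4+ over lung IFN-gamma+ cells 1 region was higher and 2 lower, in lung IL-4+ over LN IL-4+ cells 12 and 6, and in lung IFN-gamma+ over LN IL-4+ cells 14 and 5. The higher calls were 0.113%, 1.36% and 1.58% of the list's regions and the lower ones 0.226%, 0.679% and 0.566%, to be read against 0.108%, 1.05% and 2.17%, and 0.387%, 0.695% and 0.862%, of all regions. Itpr1, a calcium channel opened by the product of phospholipase C, had 5 regions higher in lung IL-4+ and 4 higher in lung IFN-gamma+ than in LN IL-4+ cells. Its sum away from starts rose by 0.77 in lung IL-4+ over LN IL-4+ cells (SE 0.16, adjusted p = 0.0498 by limma). With the larger pseudocount, quantile normalization, fits of 2 populations or a replicate block, 0 such sums of the list were called higher there. The same was true without lung IL-4+ 2 and without lung IL-4+ 3, where 0 of all 15972 genes were called.

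The searched letters were about as common near the members as elsewhere. In the central 300 bases GATA letters occurred in 16.5% of members' regions and 15.2% of all regions, Tcf7 letters in 13.7% and 12.7%, ETS letters in 12.3% and 15.1%, Runx letters in 9.48% and 11.0%, bZIP letters in 7.26% and 9.49%, NFAT letters in 7.0% and 7.16%, T-box letters in 2.48% and 1.68%, and E-box letters in 32.9% and 34.5%. Of the 15 called regions 4 held Tcf7 letters, 4 E-box, 3 ETS, 3 GATA, 2 Runx, 2 bZIP, 1 T-box and 0 NFAT letters. Such matches describe letters and not binding.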

How the data were processed

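ATAC-seq libraries of sorted CD4+ T cells fell into 3 populations by tissue and reporter, as labelled, with 2 libraries for LN IL-4+, 2 for lung IFN-gamma+ and 3 for lung IL-4+. The authors trimmed adapters, mapped reads to GRCm38/mm10 with Bowtie2 2.3.2, called summits per replicate with MACS2 2.1.1, counted transposase insertions in merged regions and deposited log2 insertions per kb, normalized with voom (limma 3.38.3 in R 3.5.1). Their sorted values per region nearly coincide between libraries, which would follow from a quantile step that the sources used here do not state. Library totals are not in the table, and insertions were rebuilt as the rank of each distinct value within its library, a lower bound. Intervals of single values were not computed.

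Regions were assigned with GENCODE M21. All 113820 regions were fitted with limma 3.58.1 in R 4.3.3 (lmFit, eBayes with trend, 1 mean per population, no filter and no pseudocount), with Benjamini-Hochberg adjustment within a contrast, and called at an adjusted p below 0.05 and 3-fold. Sums over a gene's promoter regions and over its other regions (log2 of normalized insertions on the CPM scale, pseudocount 0.1) were fitted over all protein-coding genes. The fit was also run on simulated data with independent noise and no library classes, which cannot show how it behaves where the classes differ. Joins, sequences and plots used Python 3.11.15, numpy 2.4.6, pandas 2.3.3 and matplotlib 3.10.9. Sequences were read from the GRCm38.p6 genome of RefSeq.

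The rule for named genes took all 38 members by role, every called region, the highest promoter region of each member, per contrast the members with the largest sums' differences, and every member called by a sum. Some genes of the wider lists are not reported here. The members and lists were chosen with earlier results of these data known. Same-numbered replicates were not treated as pairs, since the labels do not say that they are. Alternatives were another pseudocount, a filter on low values, quantile normalization, median centring, fits of 2 populations, a replicate block, the class covariate, array weights, a GC correction, other thresholds, flanks and promoter windows, and each library left out.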

Additional observations from a re-analysis of the deposited data

How the results depend on the processing

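Counts of called regions are given as higher and lower in lung IL-4+ over lung IFN-gamma+ (0 and 1 as reported), lung IL-4+ over LN IL-4+ (2 and 0) and lung IFN-gamma+ over LN IL-4+ cells (8 and 5). A filter on low values, median centring and the GC correction left all 6 counts within 1.5 times. The class covariate gave 1 and 2, 7 and 9, and 14 and 9. Array weights gave 70 and 8 in the first comparison, 5 higher in the second and 16 lower in the third. In that first comparison array weights also called 8712 of 13718 promoter sums and 9765 of 15972 other sums over all genes. Shares of all regions are given above for the reported fit and the class covariate only. The counts under other settings, also those without a library below, show how calls move and are no result about the members. Fits of 2 populations gave 1 and 3 in the first, 1 higher in the second and 3 higher in the third. Quantile normalization gave 0 lower in the first and 4 and 1 in the second, and the larger pseudocount 3 lower in the third. A 2-fold limit, or none, gave 2 lower, 6 and 2, and 13 higher. The gene body alone gave 0 lower, 0 higher and 2 lower, and 25 kb flanks 2 lower, 1 lower and 8 lower.

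Without 1 library at a time the counts ran from 0 to 7 higher and 0 to 3 lower in the first comparison, 1 to 7 and 0 to 1 in the second, and 0 to 13 and 0 to 34 in the third, where 34 was the count without LN IL-4+ 2, the wide library, and 0 that without either lung IFN-gamma+ library. In these fits 7 higher in the first comparison came without lung IL-4+ 1. A population left with 1 library is assumed to vary like the others.

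With 0 gene sums called as reported, the class covariate gave 1, 6 and 1 at promoters and 1, 6 and 5 away from starts, array weights 26 and 28 in the first comparison, and quantile normalization 1 and 1 away from starts in the other two comparisons. Without lung IL-4+ 1 the other sums called were 2 in the first and 1 in the third comparison, where 223 and 725 of 15972 genes were called. Without LN IL-4+ 2 the LN IL-4+ population held 1 library. The members' median log2 difference in the third comparison was then -0.51 at promoters and -0.43 away from starts, against -0.09 and -0.09 for all genes. As reported it was -0.31 and -0.26, against -0.07 and -0.09. The cause of these changes was not tested.

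Whether the replicate numbers pair the libraries is not known. The deviations of same-numbered libraries from their population means correlated at -0.54 to 0.06, but number and library class are crossed in the IL-4+ populations, so this check cannot tell. With a replicate block the counts of regions were 0 and 0, 0 and 0, and 1 and 0, and 0 gene sums were called. Lung IL-4+ 3 has no library of its number in another population, so the block removes it from the contrasts. Over all 16 alternatives, the named calls kept their direction and threshold in 169 of 256 checks and 0 changed sign. With 2 or 3 libraries per population, the call rule also sets aside every change under 3-fold.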
